A study of Mus musculus with 6 samples.

Results

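Ephrins, semaphorins, Slits and netrins are cues that steer growing axons and migrating cells, and the genes for these cues and for their receptors were followed in embryonic mouse kidneys with and without Sall1. Members were chosen by gene symbol: the Epha, Ephb, Efna, Efnb, Sema3 to Sema7, Plxn, Slit, Robo, Ntn1 to Ntn5 and Unc5 series, with Nrp1, Nrp2, Dcc and Neo1. They came to 65 of the 17235 genes named on the array. Of these, 64 were measured, among 26394 features in all. Epha6 was not well above background on 2 arrays and was not kept. Efna3, Robo3, Sema3g and Plxnb2 have symbols of the same pattern but no matched probe, and were not analysed here. The rule uses symbols alone and no measured value, though the families were picked with earlier results of these data known.

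Sall1 encodes a zinc finger transcription factor of the cap mesenchyme, the nephron progenitors around the tips of the ureteric bud. RNA from kidneys at E14.5, of a strain mixing 129 and C57BL/6, was hybridised to 6 one-colour Agilent arrays, 1 array per sample. The first line, here Six2Cre, carried floxed Sall1 and a Cre named after Six2, a gene of nephron progenitors. It had 2 Sall1 knockout arrays (7 and 9) and 2 control arrays (5 and 2). The second line, here CreER, carried floxed Sall1 and a tamoxifen-inducible Cre that its name places at Sall1. It had 1 knockout array (5) and 1 control array (2), with tamoxifen at E12.5, 48 hours before the kidneys were taken. The CreER knockout is titled CreER/flox and its control wt/flox, so the CreER allele and the loss of Sall1 cannot be told apart in that pair. The treatment note mentions tamoxifen for both lines. Whether Cre was present in the Six2Cre controls, how many kidneys made a sample and whether arrays came from separate embryos are unknown from the labels, so p-values measure the spread between these samples, which may be technical.

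Ephrins are membrane-bound ligands of the Eph receptor tyrosine kinases, and contact between them sorts cells and sets tissue boundaries. Secreted class 3 semaphorins bind neuropilins, which signal through plexins, whereas membrane semaphorins mostly bind plexins directly. Slits act through Robo receptors and netrins through Dcc, neogenin and the Unc5 receptors. In the kidney these families have roles outside the nervous system: Slit2 and Robo2 limit where the ureteric bud forms, semaphorin 3A acts on ureteric bud branching and podocytes, and neuropilins serve as vascular co-receptors.

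Values are given as percent of each array's 75th percentile of signal and apply to 1 probe, so they compare arrays and not genes. Log2 differences are knockout minus control. The SE of the Six2Cre difference comes from a limma fit of the 4 groups over all 26394 features, with 2 arrays per group in this line. CreER differences are between single arrays and have no error. The probes well above background made up 71.8% on CreER knockout 5 and 80.0% to 82.9% on the other arrays. Negative control spots had an SD of 4.01 on CreER knockout 5, against 1.46 to 1.61 on the other arrays. Six2Cre knockout 7 and control 5 shared slide 1, and the other 4 arrays shared slide 2, so each slide held a Six2Cre pair.

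The labels were checked on the targeted gene and on 2 progenitor genes. Sall1 had 16.0% and 25.0% on Six2Cre knockouts 7 and 9, against 38.5% and 58.6% on controls 5 and 2, and 6.01% on the CreER knockout, against 41.2% on its control. Six2 differed by -1.60 in the Six2Cre line and -0.50 in the CreER line, and Cited1, another cap mesenchyme gene, by -4.16 and -2.85. All 3 knockout arrays lay below all 3 controls for these genes, as their labels say. The part of Sall1 that was floxed is not known here, so its probe is a limited check.

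In the Six2Cre line the guidance genes moved in both directions and mostly by little. Ntn1, Epha5, Sema3a, Plxnc1, Sema3d and Ntn3 lay furthest above control, and Ntn4 and Plxna4 furthest below it. Of the 64 genes, 25 were higher and 39 lower in the knockouts. Their median difference was -0.15, against 0.03 over all features, with -0.16 on slide 1 and -0.01 on slide 2, and it turned to 0.053 without knockout 7. Of the means, 46 of the 64 differed from control by less than 0.5. The median size of the difference, without its sign, was 0.285 for the guidance genes and 0.215 for all features.

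No guidance gene passed a Benjamini-Hochberg adjusted p of 0.05 in the limma fit of the 4 groups, which has 2 residual degrees of freedom; the share of all features that passed was 0%. The lowest adjusted p was 0.356 among the guidance genes and 0.0862 among all features. An unadjusted p under 0.05 was reached by 8 guidance genes, 6 higher and 2 lower, against 6.33% of all features. With slide as a block and limma's trended, robust variance, 6 guidance genes passed an adjusted p of 0.05, or 9.38% of them, against 2.38% of all features. The 5 higher ones were Ntn1, Ntn3, Sema3a, Sema3d and Plxnc1, where 1.16% of all features were called higher, and Plxna4 was the lower one, where 1.22% were called lower. That fit leaves 1 residual degree of freedom, and with the block alone 0 features passed. "Rose" and "fell" are used below only for genes called in that fit. Over it and 6 further settings of scaling, filter and probe choice, Ntn1 was called in 7 of 7, Sema3a, Sema3d and Ntn3 in 6 of 7, and Plxna4 and Plxnc1 in 5 of 7. Of genes not called in it, Epha5 passed in 3 settings, Efnb3 in 2, and Ntn4 and Unc5a in 1 each. These settings all use the same arrays and were chosen after seeing the data, so they are not independent checks.

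Both knockouts lay above both controls for 13 guidance genes, or 20.3%, against 17.6% of all features. Both lay below for another 13, against 12.6% of all features. The difference had the same sign within both slides for 44 genes, or 68.8%, against 59.1% of all features. It was at least 2-fold higher within both slides for Ntn1, Sema3a, Sema3d and Epha5, which is 6.25% of the guidance genes against 1.55% of all features. No guidance gene was at least 2-fold lower within both slides, against 1.68% of all features. Across the 64 genes, which are not independent replicates, the differences of the 2 slide pairs had a Pearson r of 0.62, beside 0.39 across all features.

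**Figure D1:**
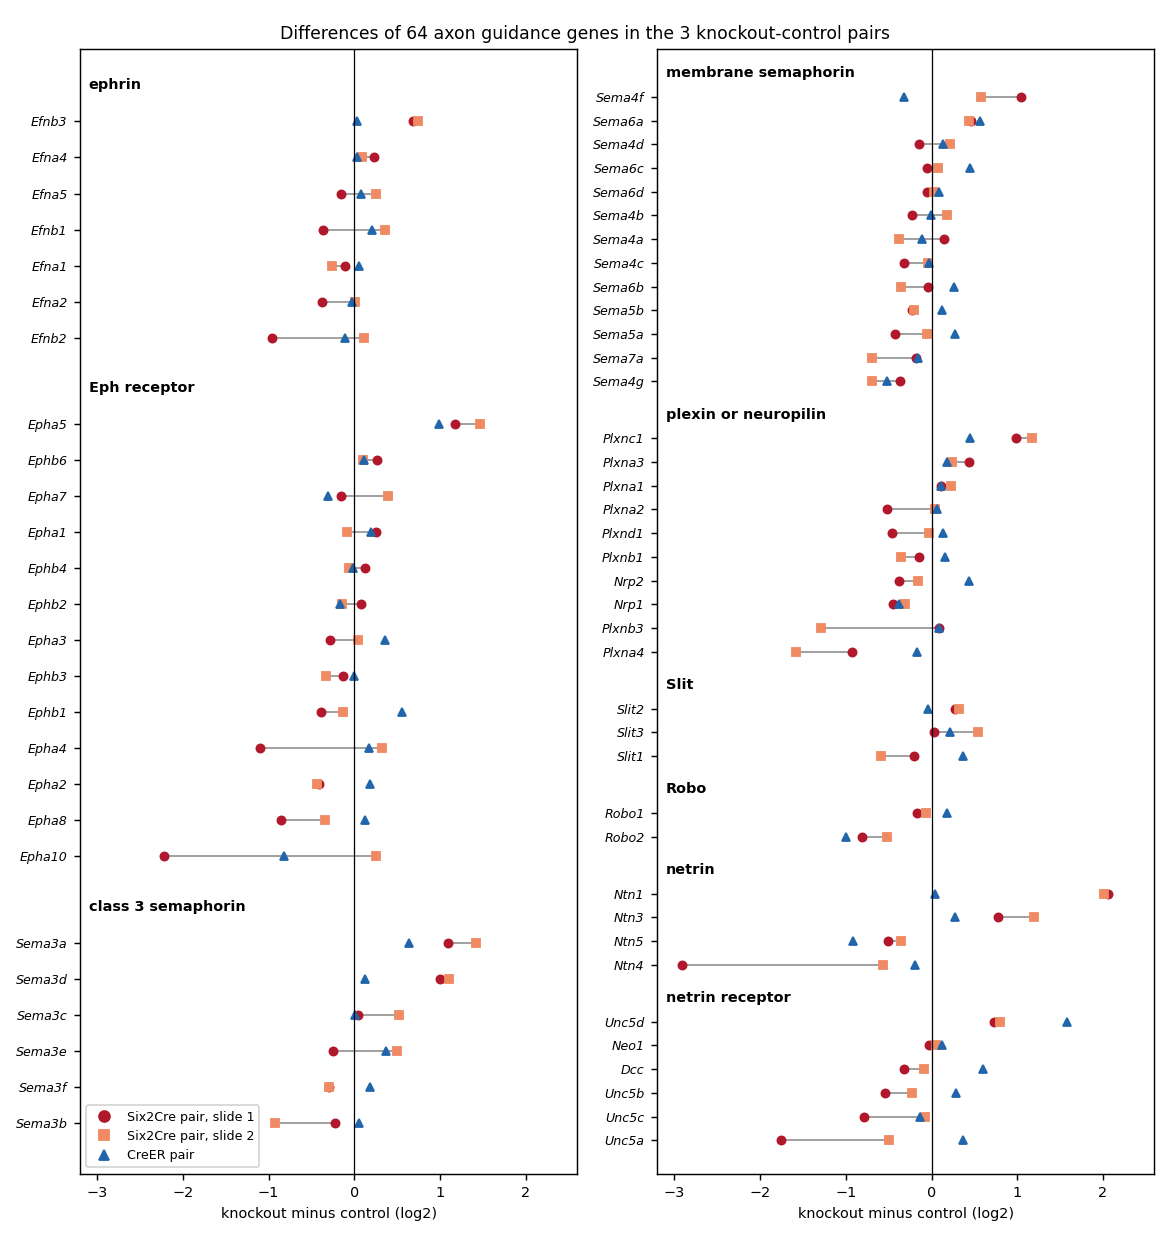
Knockout minus control (log2, horizontal axis) for each of the 64 measured guidance genes, grouped by family, in the Six2Cre pair on slide 1 (circles), the Six2Cre pair on slide 2 (squares) and the CreER pair (triangles); each point is a difference of 2 arrays. Most points lie within 0.5 of 0, Ntn1 stands near 2 in both Six2Cre pairs and near 0 in the CreER pair, and Ntn4, Epha10 and Unc5a are spread between slides.

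The promoters of the genes that rose are shown where they were at hand. The shared direction of these genes comes from that choice and is not a result. Each window is 300 bases, from 250 before to 50 after the annotated start, taken from RefSeq on build GRCm38.p6 and written 5′ to 3′ on the gene's own strand. The windows are chr5:13396534-13396833 on the plus strand for Sema3a, chr5:12382916-12383215 on the plus strand for Sema3d, chr10:94944796-94945095 on the minus strand for Plxnc1 and chr17:24209338-24209637 on the minus strand for Ntn3. Capitals mark the GC box letters GGGCGG and the CCAAT box letters CCAAT on either strand. The array's own design uses another build. Ntn1 and Plxna4 are named only.
Sema3a: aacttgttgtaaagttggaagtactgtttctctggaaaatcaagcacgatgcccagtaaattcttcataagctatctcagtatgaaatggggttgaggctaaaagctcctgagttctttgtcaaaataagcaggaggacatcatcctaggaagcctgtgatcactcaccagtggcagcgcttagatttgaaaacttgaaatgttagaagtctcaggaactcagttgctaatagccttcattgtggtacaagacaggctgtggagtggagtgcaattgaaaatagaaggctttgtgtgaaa
Sema3d: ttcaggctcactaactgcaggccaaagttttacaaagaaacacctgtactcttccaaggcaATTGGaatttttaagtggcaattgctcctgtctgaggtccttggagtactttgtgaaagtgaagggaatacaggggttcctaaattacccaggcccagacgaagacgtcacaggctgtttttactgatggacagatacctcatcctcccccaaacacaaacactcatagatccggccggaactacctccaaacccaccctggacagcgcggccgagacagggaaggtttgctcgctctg
Plxnc1: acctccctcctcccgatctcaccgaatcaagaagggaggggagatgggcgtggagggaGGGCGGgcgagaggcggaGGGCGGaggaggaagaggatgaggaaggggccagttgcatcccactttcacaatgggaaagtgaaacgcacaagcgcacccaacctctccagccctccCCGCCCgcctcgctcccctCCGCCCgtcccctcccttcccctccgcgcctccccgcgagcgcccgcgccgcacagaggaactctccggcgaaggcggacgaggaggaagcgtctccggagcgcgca
Ntn3: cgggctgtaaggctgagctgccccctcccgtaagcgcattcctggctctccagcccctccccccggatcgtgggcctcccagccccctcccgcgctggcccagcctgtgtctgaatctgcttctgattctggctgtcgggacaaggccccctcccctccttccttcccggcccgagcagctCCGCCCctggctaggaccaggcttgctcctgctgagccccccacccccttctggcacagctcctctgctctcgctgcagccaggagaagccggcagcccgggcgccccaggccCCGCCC

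The 4 windows differed in composition. Sema3a had 41.3% G and C with 2 CpG dinucleotides and none of the motifs searched, and Sema3d had 49.7% with 8 CpG and 1 CCAAT box. Plxnc1 had 69.0% with 30 CpG and 4 GC boxes, and Ntn3 had 71.3% with 16 CpG and 2 GC boxes. The TATA box letters TATAAA, the AT-rich core ATATT that SALL proteins bind and the TCF/LEF core CTTTGA were also searched on both strands, and none of them was in these 4 windows. A promoter window was listed for 54 of the guidance genes. GGGCGG was in 72.2% of them, against 35.9% of all 27025 windows, CCAAT in 25.9% against 37.9%, TATAAA in 3.70% against 14.2%, ATATT in 14.8% against 26.0% and CTTTGA in 7.41% against 16.2%. The 27025 windows are those of every gene listed, measured on these arrays or not, so the 2 sets are not matched. A match is a run of letters and not a measured binding site.

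Netrins showed the widest spread of any family. Of the 4 measured, Ntn1 and Ntn3 were higher and Ntn4 and Ntn5 lower in Six2Cre knockouts. Ntn1 encodes netrin-1, a secreted cue that attracts or repels axons according to the receptor. Ntn1 had 235% and 111% on knockouts 7 and 9, against 56.4% and 27.6% on controls 5 and 2. Both knockouts stood above both controls, and within each array group the slide 1 array was the brighter one. The difference was 2.03 ± 0.54 (SE), or 4.10-fold, with 2.06 on slide 1 and 2.01 on slide 2. Ntn1 rose with slide as a block and trended, robust variance (limma adjusted p = 0.00471), while the 4-group fit gave an adjusted p of 0.513. A further Ntn1 probe differed by 1.44.

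In the CreER pair Ntn1 had 30.3% on the knockout and 29.6% on the control, a difference of 0.04. The difference between lines, CreER minus Six2Cre, was -2.00 ± 0.94 (SE), with an unadjusted limma p of 0.0902 and an adjusted p of 1.00. The separation of the lines for Ntn1 therefore did not pass the test.

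Ntn3, which encodes another secreted netrin, had 175% and 254% on knockouts 7 and 9, against 102% and 111% on controls 5 and 2. Both knockouts lay above both controls, and the CreER knockout (143%) was also above its control (118%). The Six2Cre difference was 0.98 ± 0.30, or 1.98-fold. Ntn3 rose with slide as a block and trended, robust variance (limma adjusted p = 0.0338). The 4-group fit gave an adjusted p of 0.60.

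Ntn4 encodes a basement membrane netrin that binds laminin. Ntn4 was dim, with 0.380% and 0.887% on knockouts 7 and 9, against 2.86% and 1.31% on controls 5 and 2, and only 1 of the 2 knockout arrays was well above background. The groups did not overlap, but the difference was -2.91 on slide 1 and -0.56 on slide 2, so its mean of -1.74 ± 0.59 came mainly from slide 1. Ntn4 passed neither fit (limma adjusted p = 0.701 and 0.347), and it differed by -0.19 in the CreER pair. Ntn5 was dim as well, and its difference of -0.43 lay within overlapping groups.

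The netrin receptors leaned the other way from Ntn1 and Ntn3, with 2 of 6 higher, 4 lower and a median of -0.29. That median was -0.43 on slide 1 and -0.08 on slide 2. In the CreER pair 5 of the 6 were higher and 1 lower, with a median of 0.33. Unc5a and Unc5d encode receptors of the Unc5 group, which mediate repulsion by netrin. Unc5a had 7.36% and 27.1% on knockouts 7 and 9, against 24.8% and 38.3% on controls 5 and 2. Knockout 9 stood above control 5, so the groups overlapped, and the difference of -1.13 ± 0.69 was -1.75 on slide 1 and -0.50 on slide 2. The CreER difference of Unc5a had the other sign, 0.37.

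Unc5d had 0.815% and 1.04% on knockouts 7 and 9, against 0.493% and 0.596% on controls 5 and 2. The groups did not overlap and the difference of 0.76 did not pass (limma adjusted p = 0.757). Only 1 of the 2 controls was well above background. The slides gave 0.72 and 0.80 on this probe, and 1.32 and 0.04 on the other Unc5d probe. Dcc, the attractive netrin receptor, differed by -0.20, and Neo1, its relative neogenin, by 0.01. Unc5b and Unc5c differed by -0.38 and -0.43.

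**Figure D2:**
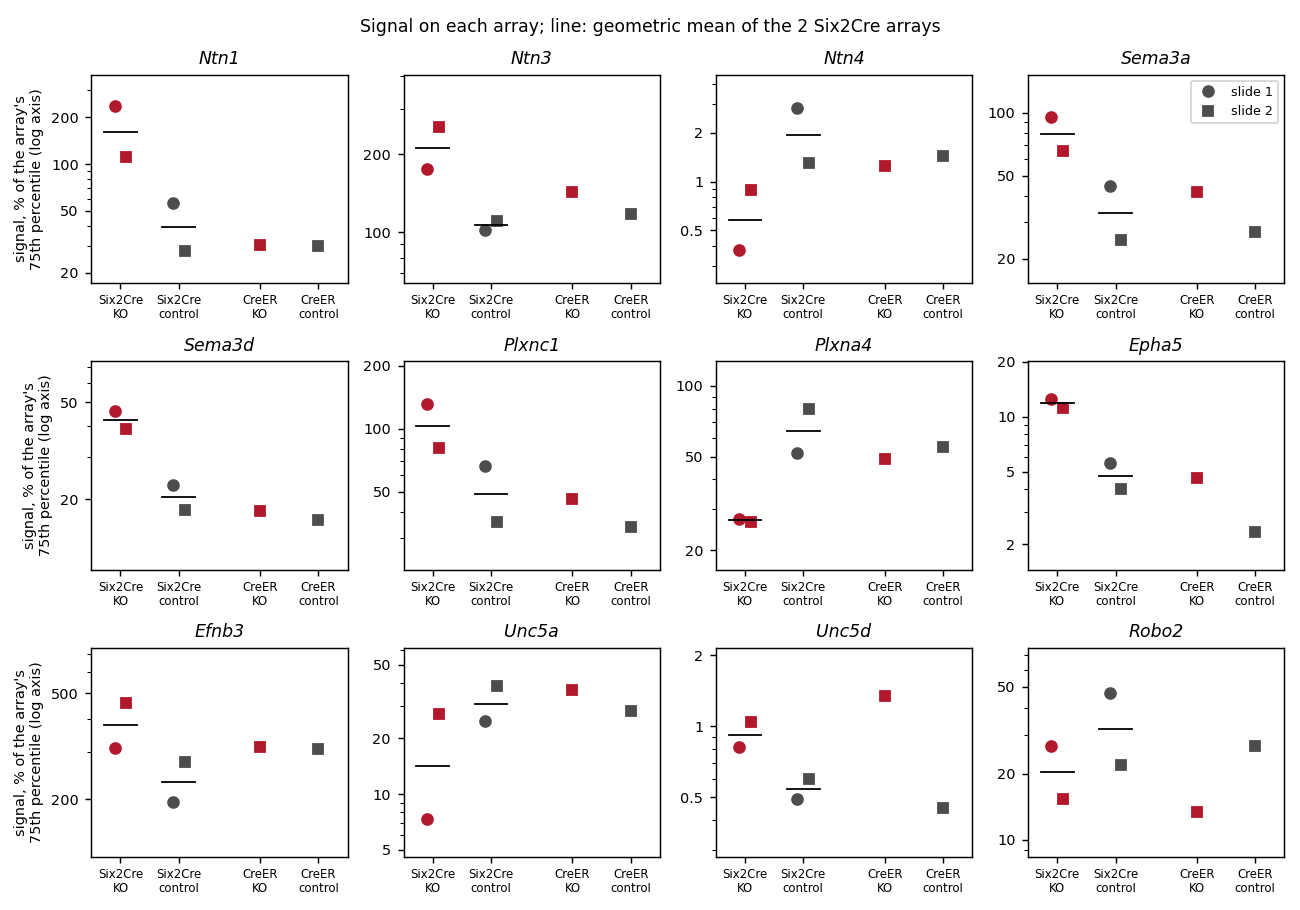
Signal on each array as percent of that array's 75th percentile (log axis) for 12 guidance genes; red points are knockouts and grey points controls, circles slide 1 and squares slide 2, and lines are geometric means of the 2 Six2Cre arrays of a group. For Ntn1, Ntn3, Sema3a, Sema3d, Plxnc1 and Epha5 both Six2Cre knockouts lie above both Six2Cre controls, and for Plxna4 both lie below.

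Class 3 semaphorins, the secreted ligands of the neuropilin and plexin receptors, had 4 of 6 genes higher and 2 lower, with a median of 0.20. That median was -0.09 on slide 1 and 0.51 on slide 2, so the slides disagreed in sign. Sema3a encodes the repulsive cue semaphorin 3A. Sema3a had 95.4% and 65.5% on knockouts 7 and 9, against 44.6% and 24.6% on controls 5 and 2. Both knockouts were above both controls, and the CreER knockout (42.0%) was above its own control (26.9%) though below control 5 of the Six2Cre line. The Six2Cre difference was 1.26 ± 0.41, or 2.39-fold, and the CreER difference 0.64, or 1.56-fold. Sema3a rose with slide as a block and trended, robust variance (limma adjusted p = 0.0219), against 0.656 in the 4-group fit. Its other probe differed by 1.16 in the Six2Cre line and 0.76 in the CreER line.

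Sema3d, a related secreted semaphorin, had 46.0% and 38.9% on knockouts 7 and 9, against 23.0% and 18.1% on controls 5 and 2. The groups did not overlap and the arrays of a group lay close together. The difference was 1.05 ± 0.27, or 2.08-fold, and 0.12 in the CreER pair. Sema3d rose with slide as a block and trended, robust variance, narrowly (limma adjusted p = 0.0491), against 0.496 in the 4-group fit.

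Sema3b and Sema3f, further secreted semaphorins, lay below control. Sema3b had 80.0% and 91.1% on knockouts 7 and 9, against 93.3% and 173% on controls 5 and 2, a difference of -0.57 that was larger on slide 2 (-0.92) than on slide 1 (-0.22). Both knockouts were below both controls for Sema3b, with knockout 9 close to control 5. Its CreER difference was 0.05. Sema3f differed by -0.30 and Sema3c and Sema3e by 0.28 and 0.12. Sema3e was at -0.25 on slide 1 and 0.50 on slide 2. In the CreER pair all 6 class 3 genes were higher on the knockout array, by 0.01 to 0.64.

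The plexins and neuropilins had 3 of 10 genes higher and 7 lower, with a median of -0.25, and held a gene called in each direction. Plxnc1 encodes plexin C1, the receptor of semaphorin 7A. Plxnc1 had 131% and 80.6% on knockouts 7 and 9, against 66.1% and 35.9% on controls 5 and 2. Both knockouts were above both controls, with the slide 1 arrays the brighter in each group. The difference was 1.08 ± 0.44, or 2.11-fold, and 0.44 in the CreER pair. Plxnc1 rose with slide as a block and trended, robust variance (limma adjusted p = 0.0264), against 0.836 in the 4-group fit, and its other probe differed by 0.75. Sema7a, the ligand, had 60.1% and 40.6% on knockouts 7 and 9, against 68.0% and 65.9% on controls 5 and 2, a difference of -0.44 that did not pass. The CreER difference of Sema7a was -0.16.

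Plxna4 encodes plexin A4, which transmits class 3 semaphorin signals with neuropilins. Plxna4 had 27.1% and 26.4% on knockouts 7 and 9, against 51.5% and 79.3% on controls 5 and 2. The 2 knockouts were nearly equal and below both controls, and the CreER knockout (48.9%) was slightly below its control (54.9%). The Six2Cre difference was -1.26 ± 0.31, a 2.39-fold lower signal, with -0.93 on slide 1 and -1.59 on slide 2. Plxna4 fell with slide as a block and trended, robust variance (limma adjusted p = 0.0406), against 0.464 in the 4-group fit. Its other 2 probes differed by -0.80 and -0.88.

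Nrp1, the neuropilin that binds semaphorin 3A and VEGF, had 68.3% and 83.6% on knockouts 7 and 9, against 93.5% and 104% on controls 5 and 2, and 84.2% on the CreER knockout, against 110% on its control. All 3 knockouts lay below all 3 controls, with a log2 difference of -0.38 in each line that did not pass. Nrp2 differed by -0.27. Sema3a and Nrp1 thus stood on opposite sides of control in the Six2Cre arrays, with only Sema3a passing a fit. The A-type plexins were mixed, with Plxna1 and Plxna3 at 0.17 and 0.34, and Plxna2 and Plxna4 at -0.24 and -1.26.

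**Figure D3:**
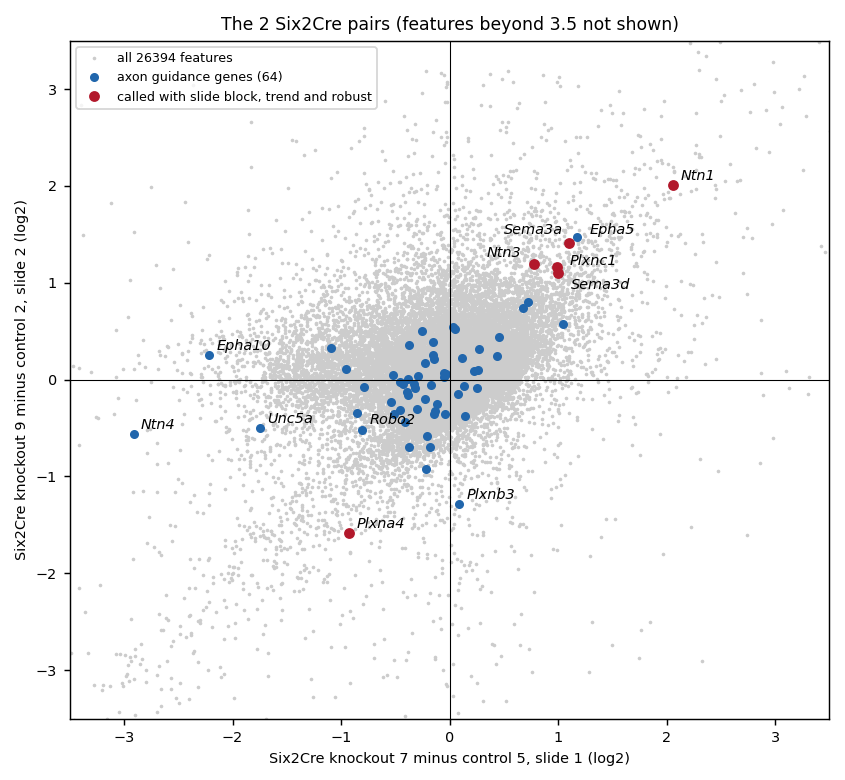
Knockout minus control (log2) in the Six2Cre pair on slide 1 (horizontal axis) against the pair on slide 2 (vertical axis), for all 26394 features (grey), the 64 guidance genes (blue) and the 6 of them called with slide as a block and trended, robust variance (red). The called genes lie where the 2 pairs agree in sign. The fit favours such agreement, because its 1 residual degree of freedom is the disagreement between these pairs. Ntn4 and Epha10 differ mostly on slide 1 and Plxnb3 mostly on slide 2.

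Eph receptors had 5 of 13 genes higher and 8 lower, with a median of -0.13. Epha5, a receptor of the A-type ephrins, had 12.52% and 11.1% on knockouts 7 and 9, against 5.54% and 4.02% on controls 5 and 2, and 4.63% on the CreER knockout, against 2.33% on its control. The knockout was above the control in each of the 3 pairs, by 1.17, 1.47 and 0.99, although the CreER knockout lay below control 5 of the Six2Cre line. The Six2Cre difference of 1.32 ± 0.29, or 2.50-fold, had the lowest p of the guidance genes in the 4-group fit, where its limma adjusted p was 0.356. With slide as a block and trended, robust variance its adjusted p was 0.0672. A fit of genotype to the 6 arrays, adjusting for line and slide, gave Epha5 a difference of 1.21 ± 0.15 and again the lowest limma adjusted p of the guidance genes, 0.246.

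Epha2, a receptor of epithelial cells, had 90.6% and 84.6% on knockouts 7 and 9, against 121% and 115% on controls 5 and 2. The groups did not overlap, and the difference of -0.43 did not pass. Epha8 was not well above background on either knockout array and on 1 of the 2 control arrays only, with a measured difference of -0.60. The CreER differences had the other sign, 0.18 for Epha2 and 0.12 for Epha8. Epha4 differed by -1.10 on slide 1 and 0.33 on slide 2, and the dim Epha10 by -2.22 and 0.25, so their slide pairs disagreed in sign.

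Ephrins had 3 of 7 genes higher and 4 lower, with a median of -0.00, and the split turned to 4 higher and 3 lower with arrays scaled to their median. Efnb3, a transmembrane ephrin of the B class, had 312% and 460% on knockouts 7 and 9, against 195% and 276% on controls 5 and 2. Both knockouts were above both controls, and the difference was 0.71 ± 0.34, or 1.63-fold, with 0.68 on slide 1 and 0.74 on slide 2. Efnb3 did not pass with slide as a block and trended, robust variance (limma adjusted p = 0.0533), and in the CreER pair it differed by 0.03. Efnb2, a marker of arteries, differed by -0.96 on slide 1 and 0.11 on slide 2, and Efnb1 by -0.37 and 0.36.

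Membrane semaphorins had 4 of 13 genes higher and 9 lower, with a median of -0.12, and none passed either Six2Cre fit. Sema4f, a transmembrane semaphorin, had 14.1% and 16.9% on knockouts 7 and 9, against 6.81% and 11.3% on controls 5 and 2, a difference of 0.81. The groups did not overlap, but the CreER difference was of the other sign, -0.33. Sema6a, a ligand of A-type plexins, had 32.7% and 27.5% on knockouts 7 and 9, against 23.8% and 20.3% on controls 5 and 2, and 28.4% on the CreER knockout, against 19.2% on its control. For Sema6a all 3 knockouts lay above all 3 controls. Sema4g had 35.8% and 43.1% on knockouts 7 and 9, against 46.3% and 70.0% on controls 5 and 2, and differed by -0.54 in the Six2Cre line and -0.52 in the CreER line.

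The Slits and Robos, which have known roles in placing the ureteric bud, held no gene that passed a fit. Slit2 had 612% and 544% on knockouts 7 and 9, against 506% and 436% on controls 5 and 2, a difference of 0.30 with groups that did not overlap. Slit3 differed by 0.29. Slit1 had 12.7% and 13.6% on knockouts 7 and 9, against 14.6% and 20.4% on controls 5 and 2, a difference of -0.40. For Slit1, Slit2 and Slit3 the CreER differences were 0.37, -0.05 and 0.21, so Slit1 and Slit2 changed sign between the lines.

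Robo2, the Slit2 receptor of the nephrogenic mesenchyme, had 26.9% and 15.4% on knockouts 7 and 9, against 47.0% and 22.0% on controls 5 and 2, and 13.4% on the CreER knockout, against 26.8% on its control. The knockout was lower within every pair, with differences of -0.81, -0.52 and -1.002, although knockout 7 lay above control 2. Over all 6 arrays the difference was -0.78 ± 0.15, with an unadjusted limma p of 0.00537 and an adjusted p of 0.350. A further Robo2 probe differed by -1.26 in the Six2Cre line and -0.72 in the CreER line. Robo1 differed by -0.11.

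**Figure D4:**
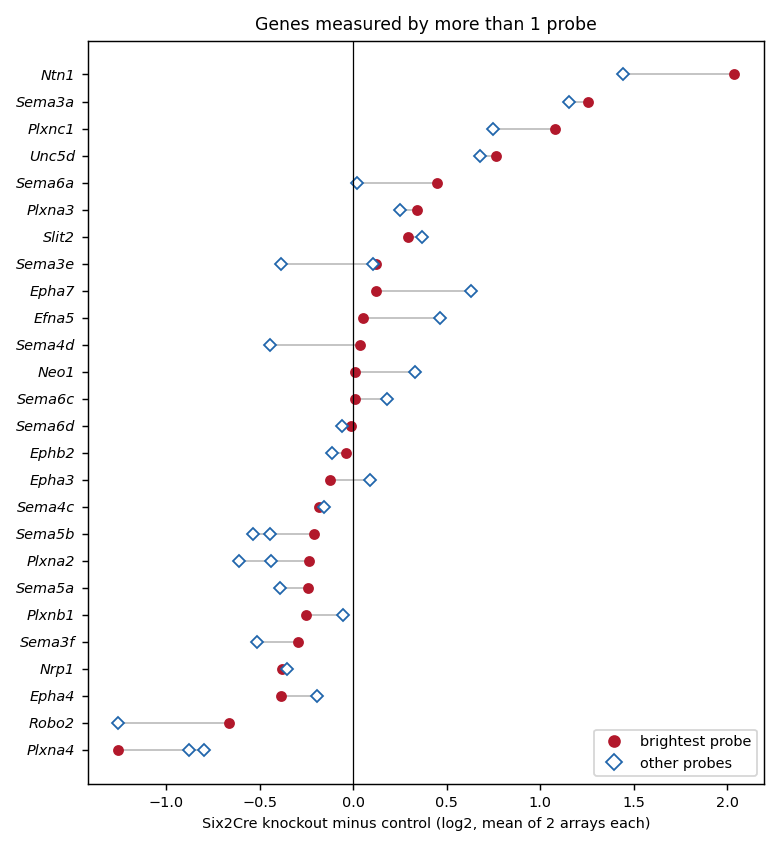
Six2Cre knockout minus control (log2, horizontal axis, mean of 2 arrays each) for the 26 guidance genes with more than 1 kept probe, with the brightest probe as filled circles and the others as open diamonds. Probes of 3 genes lay on opposite sides of 0, none by more than 0.5 each way, and for Ntn1, Sema3a, Plxnc1, Robo2 and Plxna4 all probes lay on the same side.

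By role, the 33 ligands had 15 genes higher and 18 lower with a median of -0.01, and the 31 receptors 10 higher and 21 lower with a median of -0.24. With arrays scaled to their median the ligands' split turned to 18 higher and 15 lower. More receptors stayed below control than above it under each of the 4 scalings tried, which all use the same 6 arrays. The receptors' median was -0.29 on slide 1 and -0.07 on slide 2, so their lean came mainly from slide 1. In the CreER pair the receptors lay the other way, with 22 of 31 higher and a median of 0.14. The ligands were mostly higher there too, for 22 of 33 genes, with a median of 0.05. Among the ligands 4 rose with slide as a block and trended, robust variance, and among the receptors 1 rose and 1 fell.

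In the CreER pair, 48 hours after tamoxifen, 44 of the 64 genes were higher on the knockout array and 20 lower, with a median of 0.12 against -0.01 over all features. The difference was under 0.5 for 54 of them. At least 2-fold higher was 1 gene, Unc5d, where 1.38% of all features were, and at least 2-fold lower was 1 gene, Robo2, where 2.21% were. The 2-fold call of Robo2 was lost with normexp (-0.79), quantile normalization (-0.96), the array median (-0.98) and the mean of its probes (-0.86), and its other probe differed by -0.72. Unc5d had 1.34% on the CreER knockout and 0.448% on its control, a 2.99-fold difference of 1.58, but its other probe differed by -0.06 and the value was 0.64 with normexp and 0.76 with the mean of its probes. The CreER knockout array was also the one with the fewest probes well above background and the highest negative control SD, and their part in the differences of dim genes was not tested.

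No guidance gene differed between the lines at an adjusted limma p of 0.05, where 0% of all features did. At an unadjusted p under 0.05 the counts were 0 of 64 guidance genes and 2.33% of all features. The genotype fit over all 6 arrays also called 0 of the 64, where 0% of all features were called, and with trended, robust variance again 0 of the 64, against 0.0455% of all features. In the first of these fits 13 reached an unadjusted p under 0.05, or 20.3%, against 9.71% of all features. All 3 knockouts lay above all 3 controls for 6 guidance genes, Ntn3, Efnb3, Sema6a, Unc5d, Plxna3 and Slit3, or 9.38% against 6.81% of all features. All 3 lay below for 5, Plxna4, Nrp1, Ntn4, Unc5c and Sema7a, or 7.81% against 4.43%. Across the 64 genes the Six2Cre and CreER differences had a Pearson r of 0.41, beside 0.21 across all features.

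Genes that act with these cues inside the cell or at its surface were read from 4 lists, and none of their genes passed the 4-group fit. Of 17 measured Eph and ephrin partners, 7 were higher and 10 lower with a median of -0.07, and Pdzrn3, Vav3 and Chn2 had the lowest p, at 0.61, 0.60 and -0.46. Of 20 semaphorin and plexin partners, 6 were higher and 14 lower with a median of -0.15. Mical2, an actin-oxidising enzyme downstream of plexins, differed by -1.12, the adhesion molecule Nrcam by -0.63 and its relative Chl1 by 0.94. Chl1 differed by -2.67 in the CreER pair.

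Of 14 Slit and Robo partners, 6 were higher and 8 lower with a median of -0.04, where 7 were higher and 7 lower with arrays scaled to their median. Cap1, a cyclase-associated actin regulator, had 111% and 122% on Six2Cre knockouts 7 and 9, against 193% and 206% on controls 5 and 2, and fell with slide as a block and trended, robust variance (difference -0.77, limma adjusted p = 0.0444). Srgap1 and Srgap3, GTPase-activating proteins that bind Robo, differed by -0.92 and 0.67, and the Srgap1 value was -1.78 on slide 1 and -0.06 on slide 2. Of 17 netrin receptor partners and other ligands, 10 were higher and 7 lower with a median of 0.11, where 13 were higher and 4 lower with normexp or arrays scaled to their median. Ntng1, a membrane-anchored netrin relative, had 53.9% and 54.0% on Six2Cre knockouts 7 and 9, against 26.8% and 24.7% on controls 5 and 2. It rose in the same fit (difference 1.07, limma adjusted p = 0.0373). Rgma, a ligand of neogenin, differed by 0.72 and Dscam by -0.41.

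Markers of some kidney cell types, though not of all, were also shifted in the Six2Cre line. Markers of stroma, the interstitial cells around the nephrons, were higher for 9 of 10 genes, with a mean log2 level of 3.19 and 3.02 on knockouts 7 and 9, against 2.45 and 2.20 on controls 5 and 2, and 2.23 on the CreER knockout, against 2.15 on its control. All 10 were well above background on every array. Macrophage markers were higher for 7 of 8 genes with a median of 0.66, and in the CreER pair for 8 of 8 with a median of 0.30. Nephron progenitor markers were lower for 9 of 9 genes, with a mean log2 level of -0.20 and -0.14 on knockouts 7 and 9, against 1.27 and 1.42 on controls 5 and 2, and 0.77 on the CreER knockout, against 1.44 on its control.

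Early nephron markers were lower for 9 of 9 genes with a median of -1.57 and podocyte markers for 9 of 9 with a median of -1.22. In whole-kidney RNA, fewer cells of a type and less RNA per cell cannot be told apart. The stromal and macrophage shifts accompanied the genes that rose, and the progenitor, early nephron and podocyte shifts accompanied Plxna4. The part of these shifts in the results was not tested.

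Markers of neural crest, neurons and glia, the usual users of these cues, had 4 of 7 genes higher and 3 lower with a median of 0.02, and Sox10 and Snap25 were not kept. Their mean log2 level was -2.88 and -2.77 on knockouts 7 and 9, against -2.77 and -2.79 on controls 5 and 2. Endothelial markers had a median of 0.02. Ureteric bud markers, 5 higher and 4 lower, had a median of 0.41, with 0.68 on slide 1 and 0.01 on slide 2. Muscle markers stood apart on Six2Cre control 2, at a mean log2 level of 0.53, against -3.64 to -2.49 on the other 5 arrays. Without that array, both knockouts lay above control 5 for 18 guidance genes, where 35.8% of all features did, and below it for 21, where 29.9% did.

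**Figure D5:**
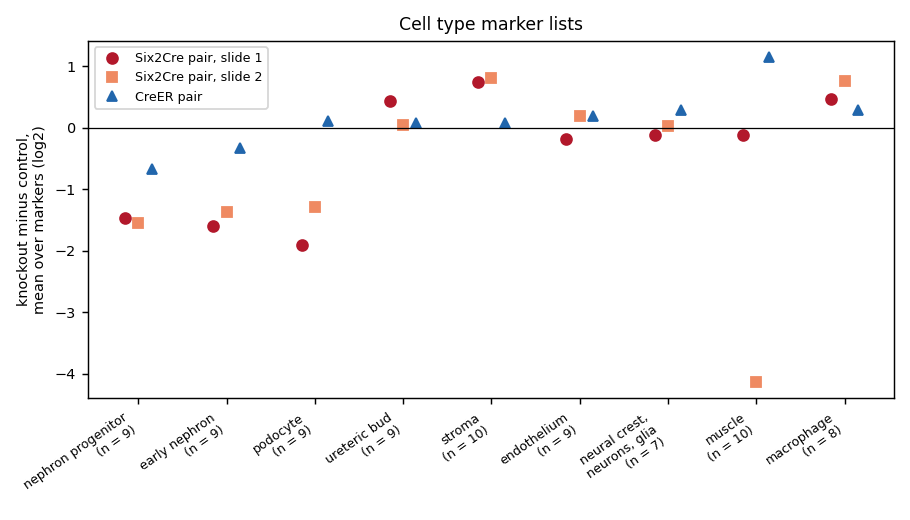
Knockout minus control (log2, vertical axis), averaged over the markers of 9 cell type lists (n genes under each name), in the Six2Cre pair on slide 1 (circles), the Six2Cre pair on slide 2 (squares) and the CreER pair (triangles). Nephron progenitor, early nephron and podocyte lists lie below 0 and stroma above 0 in both Six2Cre pairs, and the muscle list is far below 0 in the pair that holds Six2Cre control 2.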

How the data were processed

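Total RNA was extracted with Trizol and 0.25 ug per sample was labelled with Cy3, per the labels' protocols. The authors deposited Feature Extraction 10.5.1.1 output; its processed signal is a linear intensity after background subtraction, with no scaling between arrays, per the file headers. The deposited series table matched this intensity within a relative tolerance of 0.001. Spots of a probe were averaged and flagged outliers left out, giving 40987 of 41174 probes. Probes took gene names through their RefSeq accession, which named 24999 of them. Analysed values are log2 signal less the 75th percentile of the array, with the brightest probe per gene and features well above background on at least 2 of 6 arrays (15234 named genes, 11160 unnamed transcripts). Of the guidance genes 59 were well above background on all 6 arrays; Ntn4, Ntn5, Unc5d, Epha8 and Epha10 were not.

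limma 3.58.1 (R 4.3.3) fitted the 4 groups, two-sided, with Benjamini-Hochberg adjustment over all features. The difference between lines takes the spread of the single CreER arrays from the Six2Cre groups. The script was tested on simulated data. Values on the 4 Six2Cre arrays, with a CreER value or difference, are given for guidance genes named by rule. These were the 20 of lowest Six2Cre p with the same sign on both slides and those at least 2-fold apart in the CreER pair. They also included those called with slide as a block and trended, robust variance, and those at background in 1 Six2Cre group. For Epha8, at background in the knockouts, only differences are given. From each partner list the 3 genes of lowest p are named. The members and lists were chosen with earlier results of these data known. Alternatives were normexp with offset 50, quantile and array-median scaling, other filters, the mean of a gene's probes, the deposited series table, the 4 Six2Cre arrays alone, the slide block, other variance models and leaving out each array. Figures used matplotlib 3.10.9 (Python 3.11.15).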

Additional observations from a re-analysis of the deposited data

How the results depend on the processing

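Arrays could not be paired by replicate number, because the groups compared share fewer than 2 of these. The Six2Cre pairs that shared a slide were compared through the slide block. No direction of a guidance gene named by rule reversed under any alternative run. Of these genes, 20 were picked for the same sign on both slides and every run uses the same arrays, so reversals were unlikely beforehand. Over all 64 genes the split of 25 higher and 39 lower became 29 and 35 with the array median. Features called in the Six2Cre line numbered 0 in the 4-group fit and 136 with arrays scaled to their median; no guidance gene was called in either. Slide as a block with trended, robust variance called 627 features and 6 guidance genes; the same fit called 581 and 7 with normexp, 1241 and 8 with quantile normalization, 1458 and 9 with the array median, 129 and 1 (Ntn1) with no filter, 664 and 7 with features well above background on all 6 arrays, and 530 and 4 with the mean of all probes. Those combined settings were chosen after seeing the data. Leaving out a Six2Cre array leaves that fit no residual degrees of freedom, so those 6 calls could not be recomputed that way. The genotype fit over 6 arrays called 0 features, 36 with normexp, 59 with the array median and 12 with trended, robust variance, and no guidance gene. The median Six2Cre difference of the guidance genes ran from -0.18 to 0.053 when each array was left out, and was 0.053 without knockout 7. Without Six2Cre control 2, 21 guidance genes in place of 13 lay below the remaining control, as did 29.9% in place of 12.6% of all features, since the rule then holds 1 control. Unc5d differed by 0.64 with normexp and 0.76 with the mean of its probes in the CreER pair, against 1.58. Dim genes are limited by signal over background. The causes were not tested.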
